A study of Mus musculus with 4 samples.

Results

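Among single cells of embryonic mouse hearts profiled by Drop-seq, 271 of 24849 cells in the deposited table were selected as endothelial cells of the forming valves with transcripts such as Wnt4 and Cyp26b1. A selected cell held at least 500 UMIs (unique molecular identifiers, each standing for 1 captured transcript), at most 20% mitochondrial UMIs, and under 1% of its UMIs from Tnnt2, Actc1, Myh6 and Myh7 together. It also held at least 2 of the 7 defining genes Stmn2, Cyp26b1, Wnt4, Pthlh, Wnt9b, Pi16 and Olfml2a, at least 1 UMI of Pecam1, Cdh5, Egfl7, Emcn or Ramp2, and fewer than 2 of the coronary genes Fabp4, Gpihbp1, Kcne3, Apln, Btnl9 and Tmem255a. The cells were thus selected on the measured UMIs of these genes. The levels of the selecting genes, and every level set against other cells of the same libraries, are therefore descriptions with no test. No position in the heart was measured.

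The hearts were labelled LatsCKO (Wt1 CreERT2/+; Lats1/2 F/F; Rosa26mTmG/+) or control (Wt1 CreERT2/+; Rosa26mTmG/+), each at embryonic days E14.5 and E13.5, with 1 library per genotype and stage. Both genotypes carried a tamoxifen-dependent Cre at the Wt1 locus, a driver active in the epicardium, and the mTmG reporter, which changes from membrane tdTomato to membrane EGFP after recombination. Lats1 and Lats2 are the Hippo pathway kinases that restrain the co-activators Yap and Taz. The selected cells numbered 42 and 110 in the LatsCKO libraries of E14.5 and E13.5, against 40 and 79 in the control libraries.

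The endothelium of the valves covers the cushions, the swellings that are shaped into valve leaflets, and it is known to be exposed to strong shear from blood flow. Wnt4 and Wnt9b are secreted Wnt ligands made by valve endothelium that act on neighbouring cushion cells, and Klf2 is a transcription factor induced by flow. Cyp26b1 breaks down retinoic acid, Pthlh encodes the secreted PTHrP, and Stmn2 is a microtubule regulator known best from neurons. Pi16 encodes a secreted peptidase inhibitor, and Olfml2a an extracellular matrix protein.

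The selected cells held 131045 and 395973 UMIs in the LatsCKO libraries of E14.5 and E13.5, against 95156 and 272702 in the control libraries, with medians of 2117.5 and 2994.5 against 1204.5 and 2340 UMIs per cell. All 21495 cells that passed the UMI and mitochondrial limits had lower medians of 1035 and 2015 UMIs in LatsCKO and 955 and 1588.5 UMIs in control. Among all cells, 14 barcodes occurred in more than 1 library, and 0 of the selected cells carried such a barcode. Levels below are CPM, the UMI counts of the summed cells of a library scaled to a common total, so they are transcript levels relative to all transcripts of those cells. Intervals are at 95% and cover counting error only.

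Lats1 and Lats2, the targeted genes, were too sparsely captured to check the labels in these cells. Lats1 had 5 and 8 UMIs in the LatsCKO libraries of E14.5 and E13.5, against 1 and 9 in the control libraries. Lats2 had 4 and 10 UMIs in LatsCKO, against 2 and 9 in control. The files do not show where in the transcript a UMI lies, so UMIs outside a deleted part would also be counted. Egfp, the recombined reporter, had 10 and 13 UMIs in LatsCKO and 2 and 3 UMIs in control, and Wt1, whose locus drives the Cre, had 0 UMIs in the 271 cells. After each cell was thinned to 1000 UMIs, 0 of 230 cells held a Wt1 UMI, which allows a share of up to 1.59% of cells with a UMI at that depth and sets no limit on cells that express it. With the same thinning, Egfp was seen in 2.61% (0.963 to 5.59) of selected cells over all libraries. It was seen in 1.97% of endocardial and 2.48% of coronary comparison cells, defined below, and in 2.07% of cardiomyocyte cells. The Egfp counts thus do not set the selected cells apart, and whether they had recombined was not tested.

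Promoters of 4 genes on which the results turn are printed from 250 bases before to 50 after the start, from RefSeq annotation on GRCm38.p6. Wnt4 (ENSMUSG00000036856, protein coding, chr4:137277489-137299726, plus strand) and Cyp26b1 (ENSMUSG00000063415, chr6:84571414-84593908, minus strand) divide the cells below, and Fbln5 (ENSMUSG00000021186, chr12:101746565-101819055, minus strand) and Igfbp5 (ENSMUSG00000026185, chr1:72857932-72874884, minus strand) had the lowest p, outside the defining genes, among the genes lower and higher in cells with Wnt4 alone. Capitals mark 3 short motifs searched on both strands. They are the KLF core CCACCC or GGGTGG, found in 31.5% of the 32851 promoters of the RefSeq table, the TEAD core GGAATG or CATTCC, found in 14.7%, and the nuclear receptor core AGGTCA or TGACCT, found in 16.3%. The windows lie at chr4:137277385-137277684 (plus) for Wnt4, chr6:84593761-84594060 (minus) for Cyp26b1, chr12:101818435-101818734 (minus) for a Fbln5 start and chr1:72874816-72875115 (minus) for Igfbp5.
Wnt4: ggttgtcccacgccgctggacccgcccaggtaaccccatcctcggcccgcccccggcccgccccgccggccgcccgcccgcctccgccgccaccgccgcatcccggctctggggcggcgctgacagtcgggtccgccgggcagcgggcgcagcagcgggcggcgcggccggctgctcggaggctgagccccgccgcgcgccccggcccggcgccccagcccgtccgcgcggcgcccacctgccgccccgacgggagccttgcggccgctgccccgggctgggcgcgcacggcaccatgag
Cyp26b1: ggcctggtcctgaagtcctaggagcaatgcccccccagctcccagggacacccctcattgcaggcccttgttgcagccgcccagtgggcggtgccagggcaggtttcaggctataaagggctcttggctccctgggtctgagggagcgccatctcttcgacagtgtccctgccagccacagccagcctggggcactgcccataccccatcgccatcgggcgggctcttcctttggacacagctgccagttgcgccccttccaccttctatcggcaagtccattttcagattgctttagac
Fbln5: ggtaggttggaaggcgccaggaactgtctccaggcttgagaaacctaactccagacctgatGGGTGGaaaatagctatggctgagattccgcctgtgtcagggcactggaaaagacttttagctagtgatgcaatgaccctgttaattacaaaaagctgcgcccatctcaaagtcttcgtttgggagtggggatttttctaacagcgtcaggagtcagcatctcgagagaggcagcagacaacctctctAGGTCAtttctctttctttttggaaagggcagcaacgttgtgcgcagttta
Igfbp5: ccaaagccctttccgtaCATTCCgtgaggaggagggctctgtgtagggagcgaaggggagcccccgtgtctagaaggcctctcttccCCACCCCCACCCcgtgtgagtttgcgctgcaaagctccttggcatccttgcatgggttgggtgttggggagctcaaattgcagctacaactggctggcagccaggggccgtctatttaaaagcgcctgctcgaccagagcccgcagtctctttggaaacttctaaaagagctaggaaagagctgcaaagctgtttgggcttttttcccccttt
The Wnt4 and Cyp26b1 windows hold none of the 3 motifs, and neither does the window of another Fbln5 start at chr12:101819070-101819369. The printed Fbln5 window has a KLF core from base 62 and a nuclear receptor core from base 250, and the Igfbp5 window has adjoining KLF cores from bases 88 and 94 and a TEAD core from base 18. Of the 6 defining genes with an entry, 3 (Pthlh, Pi16 and Olfml2a) hold the KLF core, 0 the TEAD core and 0 the nuclear receptor core. A match is a string of letters and shows no binding.

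The defining genes were each seen in only some of the selected cells. Olfml2a was seen in 53.5% of the 271 cells, Stmn2 in 48.0%, Wnt4 in 47.2%, Pi16 in 45.4%, Cyp26b1 in 42.4%, Pthlh in 29.2% and Wnt9b in 26.6%. After thinning to 1000 UMIs the shares were 27.4%, 31.3%, 19.6%, 22.2%, 20%, 16.5% and 12.6% in the same order. In cardiomyocyte cells, which should lack these genes (median 1040 to 2593 UMIs per library), the thinned shares lay between 0.0773% for Pthlh and 0.232% for Stmn2. Thinned shares in endocardial comparison cells, defined below, were 1.87% for Wnt4 and 0.197% for Cyp26b1, and in coronary endothelial comparison cells 0.225% and 0.901%. Wnt4 and Cyp26b1 were seen together in 49 cells (18.1%), Wnt4 and Wnt9b in 47 and Wnt4 and Olfml2a in 67 (24.7%), while Cyp26b1 and Pthlh shared 26 (9.59%).

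By library, 4 of the 7 defining genes, Wnt4, Wnt9b, Pthlh and Cyp26b1, were lower in LatsCKO than in control at both stages. Wnt4 stood at 145.0 and 199.5 CPM in the LatsCKO libraries of E14.5 and E13.5, against 536 and 370.4 CPM in the control libraries. Wnt9b stood at 61.1 and 177 CPM in LatsCKO, against 483 and 205 CPM in control. Pthlh stood at 229 and 184 CPM in LatsCKO, against 420.4 and 407 CPM in control. For these 3 genes both LatsCKO libraries lay below both control libraries, and for Olfml2a both lay above, at 381.5 and 278 CPM against 210.2 and 114 CPM. Cyp26b1 (275 and 217 CPM in LatsCKO, 347 and 249 CPM in control), Stmn2 (320.5 and 561 against 483 and 436 CPM) and Pi16 (206 and 255 against 294 and 227 CPM) overlapped between genotypes. Since cells were selected on these genes, their levels are given with no test. Over 7349 genes with at least 20 UMIs, 26.2% were lower in LatsCKO at both stages. Libraries also differed in how their cells divided by Wnt4 and Cyp26b1, as given below.

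**Figure D1:**
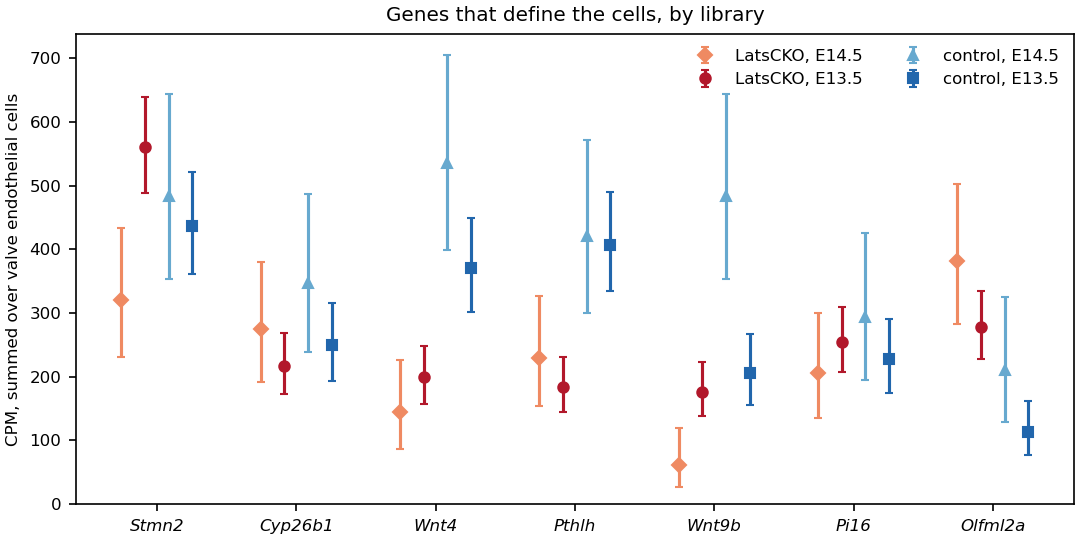
Level of the 7 defining genes in the selected cells, in CPM of the summed cells of a library, with bars for 95% Poisson intervals (counting error only). Wnt4 is lower in both LatsCKO libraries (145.0 and 199.5 CPM) than in both control libraries (536 and 370.4 CPM), while Cyp26b1 overlaps between genotypes.

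Most selected cells lay close to the limit of 2 defining genes. There were 142 cells with exactly 2 and 129 with at least 3, of which 8 held all 7. Just outside, 518 cells met every other condition with 1 defining gene, 8 more cells were left out by the coronary genes, 21 for want of a panel gene and 7 by the cardiomyocyte limit. Levels were graded over that limit for genes chosen here after their values were seen, pooled over libraries. Adamts8, a secreted metalloprotease, stood at 371.5, 80.8, 33.1 and 7.89 CPM in cells with at least 3, 2, 1 and 0 defining genes. Klf2 stood at 987.5, 550.2, 336 and 144 CPM. Hapln1, a protein that links hyaluronan to proteoglycans in cushion matrix, stood at 1738, 873.5, 536.5 and 348 CPM. By library, Klf2 at E14.5 was lower with 2 defining genes than with 1, at 201 against 320.0 CPM in LatsCKO and 352 against 556 CPM in control. Nppc, which encodes the C-type natriuretic peptide, fell off most steeply, at 189.7, 18.3, 3.95 and 0.850 CPM.

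Other genes ran the opposite way over the same 4 sets. Cdkn1c, a cyclin-dependent kinase inhibitor, stood at 477, 2003, 2502 and 2670 CPM, and Emcn, an endothelial sialomucin in the selecting panel, at 52.8, 282, 329 and 365 CPM. The mesenchymal genes Postn (358, 490.2, 1138 and 1894 CPM) and Sox9 (11.7, 20.9, 86.0 and 247 CPM) followed the same order. Npr3, an endocardial receptor for natriuretic peptides, was highest at 2 defining genes (561 CPM), with 188 CPM at 3 or more, 488 at 1 and 437 at 0. The median depth of the 4 sets was 3009, 2160, 1683 and 1349 UMIs per cell, so cells with more UMIs also met the limit more often. The part of depth in the gradients was not tested.

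**Figure D2:**
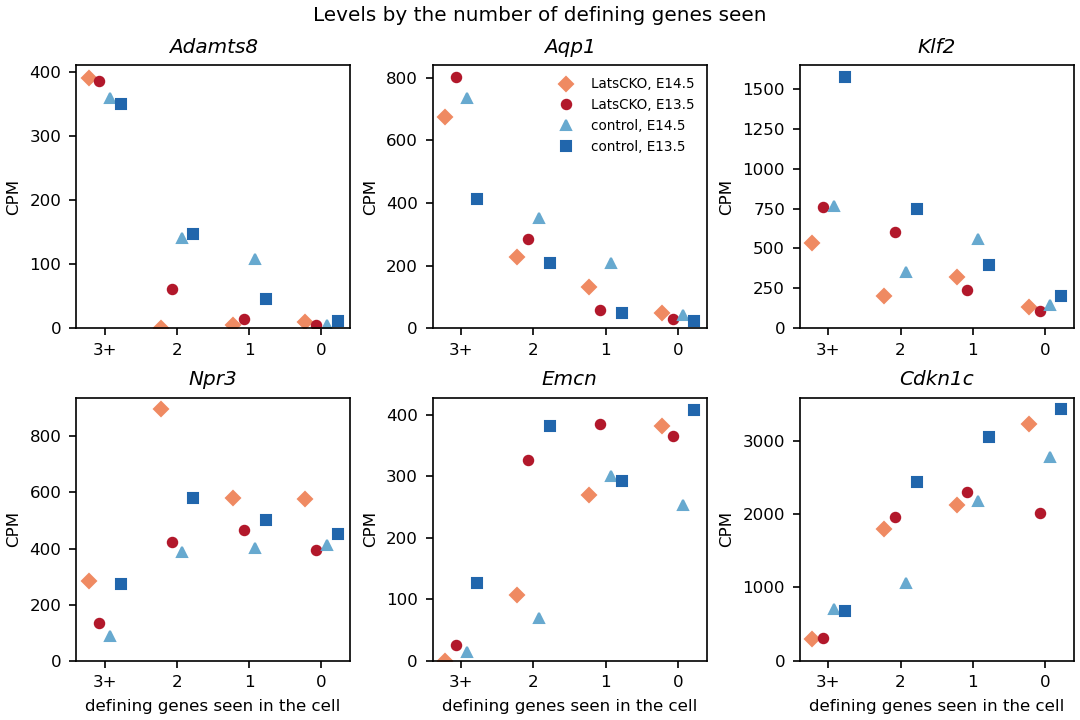
Level in CPM (vertical axis) of 6 genes in cells with at least 3, 2, 1 and 0 of the 7 defining genes that otherwise met the selection, with a point per library. Cells with at least 3 defining genes have the highest Adamts8, Aqp1 and Klf2 and the lowest Cdkn1c in each library, which describes the selection and is no test of it.

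The label of valve endothelium was checked against fixed marker lists. The 16 pan-endothelial genes, such as Tie1 and Flt1, summed to 3972 to 5094 CPM over the 4 libraries of selected cells, with all 16 detected, and to 53.5 to 184 CPM in cardiomyocyte cells. The 13 endocardial genes in the table summed to 3615 to 5020 CPM in selected cells, against 4611 to 5510 CPM in endocardial comparison cells, defined below. Of the 13, 4 were higher and 6 lower in selected cells in all 4 libraries, against 13.1% and 12.8% over all 8293 genes. Npr3, 1 of the 13, was also used to choose the comparison cells. Nfatc1, a transcription factor of this list that valve endocardium is known for, stood at 206 and 237 CPM in the LatsCKO libraries of E14.5 and E13.5, and at 284 and 293 CPM in the control libraries. Markers of several other cell types were low. The 10 macrophage markers summed to 11.0 to 31.5 CPM with 4 at 0, the 12 epicardial markers to 31.5 to 91.6 CPM with 2 at 0, and 11 of the 16 neural markers were at 0, with Gap43 at 192 to 414 CPM. Markers of other types were not low. The 10 coronary and capillary genes, with 2 at 0, summed to 206 to 341 CPM in selected cells. They summed to 72.8 to 186 CPM in endocardial and to 986 to 1369 CPM in coronary comparison cells. The 7 lymphatic genes, with 2 at 0, summed to 106 to 214 CPM in selected and 83.5 to 145.5 CPM in endocardial comparison cells. The 10 mural markers, with 1 at 0, summed to 40.3 to 298 CPM and 138 to 170 CPM. Arterial genes such as Sox17 and Gja4 were higher in cells with Cyp26b1 alone, described below. The label of valve endothelium was not tested for those cells. The 19 cushion and valve mesenchyme genes, with 1 at 0, summed to 3289 to 5783 CPM in selected cells and to 3017 to 4619 CPM in endocardial comparison cells, with Hapln1 the highest of them in each library of selected cells. The 13 cardiomyocyte markers summed to 686 to 4525 CPM in selected cells, above the pan-endothelial sum of 4334 CPM in the LatsCKO library of E14.5, and to 940 to 3904 CPM in endocardial comparison cells, and the 10 fibroblast markers to 902 to 1053 CPM, with 0 of 10 undetected. Haemoglobin made up over 1% of UMIs in 7 selected cells, and the 10 erythroid markers ranged over libraries from 609 to 6286 CPM, above the pan-endothelial sum of 5094 CPM in the LatsCKO library of E13.5.

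The share of selected cells among all cells passing the limits did not differ between genotypes beyond counting error. It was 0.750% (0.541 to 1.01) and 1.86% (1.53 to 2.24) in the LatsCKO libraries of E14.5 and E13.5, against 0.727% (0.520 to 0.988) and 1.76% (1.40 to 2.19) in the control libraries. The ratio of LatsCKO over control was 1.03 (0.654 to 1.63) at E14.5 and 1.05 (0.782 to 1.43) at E13.5. The share at E14.5 was lower than at E13.5, with ratios of 0.404 (0.276 to 0.581) in LatsCKO and 0.412 (0.274 to 0.610) in control. Depth also fell between the stages, and with cells thinned to 1000 UMIs the ratios were 0.383 (0.163 to 0.804) in LatsCKO and 0.670 (0.334 to 1.29) in control. Thinned shares were 0.311% and 0.813% in LatsCKO, against 0.578% and 0.863% in control, from 9, 39, 15 and 29 cells. With 1 library per group these ratios compare libraries.

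To show where the selected cells stand apart, they were set beside 1287 endocardial comparison cells and 551 coronary endothelial comparison cells of the same libraries. Endocardial comparison cells held at least 2 of the 5 panel genes, Npr3, and fewer than 2 defining and 2 coronary genes, and coronary comparison cells held at least 2 coronary genes. Differences are log2 of CPM with 10 CPM added, taken in each library, and understate the change of low genes. Among 8293 genes with a mean of at least 20 CPM in either set, 1083 (13.1%) were higher in the selected cells in 4 of 4 libraries and 1060 (12.8%) lower in 4 of 4.

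A secreted protease, a water channel and a peptide hormone gene were among the leading genes that were higher. Adamts8 stood at 168 and 250 CPM in selected cells of the LatsCKO libraries of E14.5 and E13.5 and at 294 and 264 CPM in those of the control libraries, against 4.04 to 16.1 CPM in endocardial comparison cells. Aqp1, a water channel that responds to flow, stood at 419.7 and 586 CPM in LatsCKO and 620.0 and 326 CPM in control, against 25.4 to 44.5 CPM. Nppc stood between 76.3 and 210.2 CPM in the 4 libraries, against 0 to 3.46 CPM. In these 3 genes no library of selected cells came near the endocardial levels. Prnp, the prion protein, differed by 2.96 to 4.60 on the log2 scale, S100a6, a calcium-binding protein, by 2.74 to 4.22, Ptprb, an endothelial receptor phosphatase, by 2.61 to 3.18, Hapln1 by 2.15 to 3.10, Socs2, an inhibitor of cytokine signalling, by 2.44 to 3.31, and the nuclear lamina gene Lmna by 1.90 to 2.56. Ccdc141 (2.74 to 4.26), Ptprr (2.02 to 3.97) and Fst, the follistatin gene (2.01 to 4.09), complete the list with the genes named for their pathways below, and 45.7% of Fst UMIs came from 1 cell.

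Of 14 flow-responsive genes at or above 20 CPM, 10 were higher in the selected cells in all 4 libraries and 0 lower, with the defining gene Pi16 among the 10. Over all 8293 genes at that level the shares were 13.1% higher and 12.8% lower, and the early response counts next are read beside them too. Early response genes, which also respond to tissue dissociation, moved alongside. Of 17 at or above 20 CPM, Klf4 among them, 7 were higher in 4 of 4 libraries and 1 lower, and the list summed to 3098 to 3773 CPM in selected cells against 1214 to 1984 CPM in endocardial comparison cells. Their part in the flow-responsive result was not tested. Klf2 stood at 343 and 697 CPM in selected cells of LatsCKO and 641 and 1225 CPM in those of control, against 217 and 204 CPM and 234 and 386 CPM in endocardial comparison cells. Klf4, a related factor, stood at 122 and 169 CPM in LatsCKO and 357 and 264 CPM in control, against 44.4 and 29.4 CPM and 36.4 and 76.0 CPM. Selected cells were above endocardial comparison cells of their own library for both factors in all 4 libraries, and above coronary comparison cells too, where Klf2 stood at 96.0 to 132 CPM and Klf4 at 11.6 to 75.1 CPM. Nos3, the endothelial nitric oxide synthase, differed less (log2 0.02 to 0.73), and Thbd, Cav1, Asah1 and S1pr1 did not hold 1 direction.

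**Figure D3:**
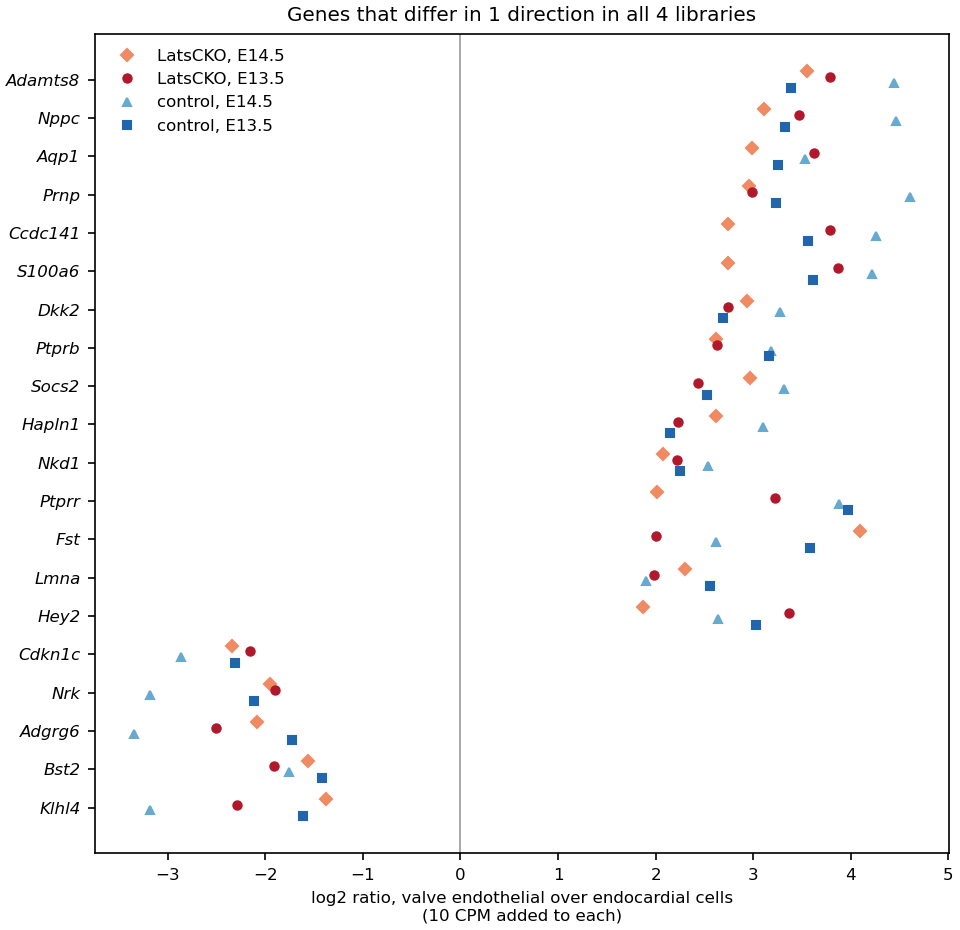
Log2 ratio of CPM in the selected (valve endothelial) cells over endocardial comparison cells, 10 CPM added to each, with a point per library, for the 15 genes most clearly higher and those of the 10 most clearly lower with at least 50 UMIs in the selected cells. Points right of 0 are higher in the selected cells. Adamts8 lies between 3.39 and 4.44 and Cdkn1c between -2.87 and -2.16.

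The Wnt ligands that were higher included defining genes, and other Wnt pathway genes were mixed. The cells were selected on Wnt4 and Wnt9b, so these 2 say nothing about the rest of the list. Counts of this list and of those that follow are read beside the shares over all 8293 genes, 13.1% higher and 12.8% lower. Of 6 Wnt ligands at or above 20 CPM, 4 were higher in all 4 libraries, namely the defining genes Wnt4 and Wnt9b and also Wnt16 and Wnt2, and 4 of 12 ligands in the table were at 0. Wnt16 stood at 30.5 and 30.3 CPM in LatsCKO and 84.1 and 143 CPM in control, against 2.21 to 28.3 CPM in endocardial comparison cells. Of 8 Wnt receptors and secreted modulators 1 was higher and 2 lower in all 4 libraries, and of 5 Wnt target genes 2 were higher and 1 lower. Dkk2, a secreted Wnt antagonist, stood at 107 and 96.0 CPM in LatsCKO and 126 and 106 CPM in control, against 4.04 to 8.07 CPM. Nkd1, an inhibitor induced by Wnt signalling, stood at 153 and 80.8 CPM in LatsCKO and 189 and 147 CPM in control, against 9.56 to 28.7 CPM. Axin2, another Wnt-induced gene, was also higher in 4 of 4 libraries (log2 0.64 to 1.82), whereas the cell-cycle gene Ccnd1 was lower in 4 of 4 (-2.66 to -1.29), at 45.5 to 130 CPM against 315 to 403 CPM.

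Other signalling lists held genes of both directions. In the Notch list, the ligand Jag1 (38.2 and 119 CPM in LatsCKO, 189 and 106 CPM in control, against 13.1 to 36.4 CPM), the receptor Notch1 (log2 0.41 to 0.87) and the target Hey2 (log2 1.87 to 3.37) were higher, and Hes1 was lower, of 10 measured genes. Hey2 stood at 85.7 to 111 CPM in cardiomyocyte cells. In the retinoid list, 2 of 7 were higher and 3 lower. The defining gene Cyp26b1 and the binding protein Crabp2 (61.1 and 116 CPM in LatsCKO, 126 and 91.7 CPM in control, against 4.04 to 15.7 CPM) were higher, and the retinoic acid receptors Rara and Rarb were lower. In the BMP and TGF-beta list, 4 of 17 were higher, Bmp4 most clearly (log2 1.30 to 2.17), and 3 lower, among them Tgfbr3 (-3.84 to -1.24) and Id2 (-2.07 to -0.74). Among valve and cushion transcription factors, 11 of 21 were higher, Nfatc1, Gata4, Gata5, Prox1 and Lmo2 included, and Foxc1, Foxc2 and Id2 were lower.

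Matrix genes were higher and lower in nearly equal numbers, 10 and 13 of 36. The higher ones were cushion and elastic fibre genes. Eln, which encodes elastin, stood at 2022 and 1515 CPM in LatsCKO and 1282 and 653 CPM in control, against 107 to 252 CPM in endocardial comparison cells, and Vcan, the proteoglycan versican, differed by 0.80 to 1.87 on the log2 scale. The lower ones included the basement membrane genes Col4a1 (-1.47 to -0.65), Col4a2 (-1.83 to -0.94), Lamb1 (-0.98 to -0.74) and Nid1 (-0.51 to -0.28). Outside the matrix, Cdkn1c was lower, with 809 to 1423 CPM in selected cells against 4507 to 7084 CPM in endocardial comparison cells. Adgrg6, an adhesion receptor of endocardium, was lower at 107 and 85.9 CPM in LatsCKO and 31.5 and 165 CPM in control, against 412 to 570.3 CPM. The capillary diaphragm gene Plvap (-2.41 to -1.26) and the semaphorin and VEGF co-receptor Nrp1 (-1.31 to -0.85) were also lower in all 4 libraries. Nrk, Ppp1r14c, Smoc1, Pla2g7, Bst2, Gucy1b3 and Klhl4 were also among the 10 most clearly lower genes.

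The selected cells were not uniform. They were divided by whether a UMI of Wnt4 or of Cyp26b1 was seen. Wnt4 alone was seen in 79 cells (median 2362 UMIs), Cyp26b1 alone in 66 (2174.5), both in 49 (3582) and neither in 77 (2230). The first and the second set were summed per library and compared by an edgeR quasi-likelihood test with the library as a block, in which the defining genes stayed in the fit and in the adjustment of p-values. They are left out of the counts of calls and of the 1348 genes on which those rest. A cell with no UMI of a gene may still express it. Relative to cells with Cyp26b1 alone, 8 genes were higher in cells with Wnt4 alone (0.593% of those tested) and 9 lower (0.668%), 17 in all (1.26%).

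Elastic fibre genes marked the cells with Cyp26b1 alone. Fbln5, which encodes fibulin 5 of elastic fibres, stood at 0 and 38.3 CPM in Wnt4-alone cells of the LatsCKO libraries of E14.5 and E13.5 and at 0 and 0 CPM in those of control, against 832 and 978 CPM and 2033 and 863 CPM in Cyp26b1-alone cells. The libraries do not overlap. The pooled levels were 13.2 CPM (2.71 to 38.5, from 3 UMIs) in Wnt4-alone cells and 984 CPM (858 to 1122) in Cyp26b1-alone cells. The fitted log2 difference of -6.10 (SE 0.501, edgeR adjusted p = 1.4e-08) depends on the prior count, and Fbln5 was seen in 40 of the 271 cells. Eln stood at 1117 and 549 CPM in Wnt4-alone cells of LatsCKO and 216 and 274 CPM in those of control, against 3050.0 and 3000.0 CPM and 5864 and 2185 CPM in Cyp26b1-alone cells (log2 -2.76, SE 0.326, edgeR adjusted p = 4.3e-06). Again every library of Cyp26b1-alone cells lay above every library of Wnt4-alone cells.

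The other genes lower in Wnt4-alone cells were 2 further matrix genes, arterial genes and a few of other kinds. Fbln2, a fibulin (log2 -1.96, SE 0.326, edgeR adjusted p = 0.00077), and Mgp, matrix Gla protein (-1.55, SE 0.283, edgeR adjusted p = 0.0025), were lower in 4 of 4 libraries. Sox17, a transcription factor of arterial endothelium, stood at 0 and 0 CPM in Wnt4-alone cells of LatsCKO and 0 and 84.4 CPM in those of control, against 92.4 and 249 CPM and 469 and 432 CPM in Cyp26b1-alone cells (fitted log2 -3.43, SE 0.660, edgeR adjusted p = 0.0039). Gja4, the arterial connexin 37 (-1.75, edgeR adjusted p = 0.018), and Cav1, caveolin 1 (-1.74, edgeR adjusted p = 0.0043), moved the same way, as did Itm2a (-1.35) and the cardiomyocyte gene Tnnt2 (-1.13), which is also used in the selecting limit. Under alternative settings Sox17 kept its call in 6 of 9, Cav1 in 5 of 8, Gja4 in 2 of 9, Tnnt2 in 2 of 10 and Itm2a in 1 of 9. The coronary and capillary list, which holds Sox17, summed to 268 and 128 CPM in Wnt4-alone cells of LatsCKO and 308 and 295.5 CPM in those of control, against 166 and 356 CPM and 704 and 512.5 CPM in Cyp26b1-alone cells. Cardiomyocyte markers summed to 2950.0 and 1506 CPM and 3666 and 728 CPM in Wnt4-alone cells, against 7006 and 1384 CPM and 4301 and 647 CPM in Cyp26b1-alone cells. Their part in the result was not tested.

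Igfbp5, which binds insulin-like growth factors, led the genes that were higher in Wnt4-alone cells. It stood at 3710.0 and 3177 CPM in Wnt4-alone cells of LatsCKO and 3419 and 4042 CPM in those of control, against 1682 and 298 CPM and 782 and 297 CPM in Cyp26b1-alone cells (log2 2.57, SE 0.334, edgeR adjusted p = 1.8e-05). Col13a1, a transmembrane collagen, stood at 358 and 421 CPM and 277 and 232 CPM in Wnt4-alone cells, against 111 and 66.3 CPM and 156 and 135 CPM in Cyp26b1-alone cells (log2 1.76, SE 0.427, edgeR adjusted p = 0.032). Neither gene overlapped between the sets, but Col13a1 kept its call under only 2 of 8 alternative settings. Cdkn1a, the p21 kinase inhibitor (2.11, edgeR adjusted p = 0.021), Col4a1 of basement membrane (1.29, edgeR adjusted p = 0.025), Fxyd5 (1.25) and Cd9 (1.11) were also higher. Of 10 alternative settings, Cdkn1a kept its call under 5, Col4a1 under 2, and Fxyd5 and Cd9 under 1 each. The remaining calls, Hba-a1 (3.20) and Hba-a2 (2.95), are haemoglobin genes of which 43.9% and 45.5% of UMIs came from 1 cell.

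The levels of the 4 sets, which are given with no test, did not place these genes along a single line from Wnt4 to Cyp26b1. Pooled over libraries, Fbln5 stood at 67.8 CPM (38.7 to 110) in cells with both genes, above the 13.2 CPM of Wnt4-alone cells. Of its 16 UMIs in cells with both, 15 came from the LatsCKO library of E13.5. In cells with neither gene Fbln5 stood at 373 CPM, and in Cyp26b1-alone cells at 984 CPM. Eln likewise stood at 305 CPM with both and 1498 CPM with neither, against 443 CPM with Wnt4 alone and 3040.0 CPM with Cyp26b1 alone. Both elastic fibre genes were thus low wherever Wnt4 was seen. Igfbp5 instead was low wherever Cyp26b1 was seen, at 665 CPM with both and 659 CPM with Cyp26b1 alone, against 3623 CPM with Wnt4 alone and 3700.0 CPM with neither. By library the gap was narrower. Cyp26b1-alone cells held 1682 CPM in LatsCKO E14.5, and cells with neither gene 1947 CPM in control E13.5. Cdkn1a stood at 403 CPM with both, 303 CPM with Wnt4 alone, 66.8 CPM with Cyp26b1 alone and 179 CPM with neither, but in the control library of E14.5 it was lowest with both, at 169 CPM, against 313 CPM with Cyp26b1 alone and 392 CPM with neither. In the planned comparison of all cells with Wnt4 against all without, Fbln5 (-4.13, edgeR adjusted p = 0.00015) and Eln (-2.56) were lower again, and Igfbp5 stood at -0.06.

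**Figure D4:**
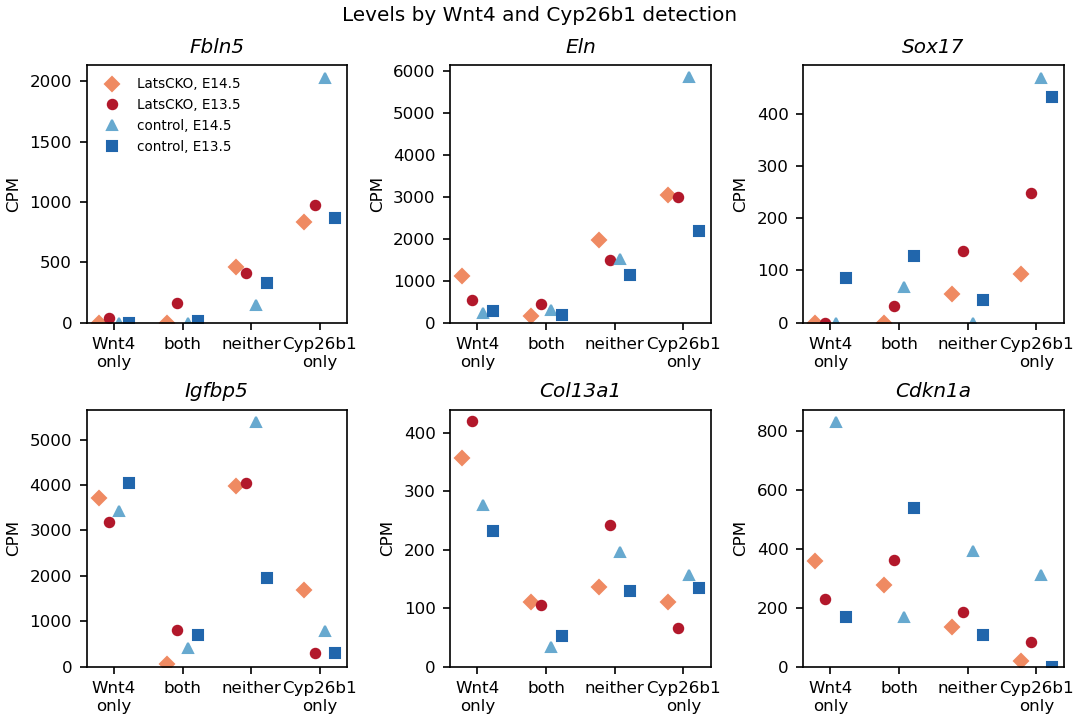
Levels in CPM of 6 genes in cells with Wnt4 alone, both, neither and Cyp26b1 alone, by library. Eln and Fbln5 are low in both sets with Wnt4 (443 and 305 CPM pooled for Eln), and Igfbp5 is low in both sets with Cyp26b1 (665 and 659 CPM pooled).

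Libraries differed in how the cells divided. Cells with Cyp26b1 alone made up 61.5% (40.6 to 79.8) of 26 and 52.9% (38.5 to 67.1) of 51 cells with either gene alone in the LatsCKO libraries of E14.5 and E13.5, against 33.3% (15.6 to 55.3) of 24 and 34.1% (20.5 to 49.9) of 44 in the control libraries. The intervals of the genotypes overlap at both stages. Any genotype difference over all selected cells is therefore read beside these shares.

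The genotype comparison summed the selected cells of each library and fitted genotype and stage as additive terms, which leaves 1 residual degree of freedom. Of 4730 genes tested, 6 were higher in LatsCKO (0.127%) and 6 lower (0.127%), 12 in all (0.254%), by edgeR's quasi-likelihood test at an adjusted p under 0.05. Of the 12, 4 are pseudogenes (Rps13-ps1, Gm11942, Gm8420 and Rps15a-ps8, all higher), 1 is a merged pair of overlapping genes (Gm17660_Gm43333, lower), and RP23-174M4.2 (lower) is named by a clone. Whether reads counted for the pseudogenes came from their parent genes was not tested. In 9 of the 12 the direction was the same in endocardial comparison cells at both stages. Those cells come from the same libraries, and the share of all tested genes with the same direction was not computed. Rps2, a ribosomal protein gene, stood at 290.0 and 141 CPM in LatsCKO and 704 and 741 CPM in control (log2 -1.84), and at 266 and 94.9 CPM against 622 and 730.4 CPM in endocardial comparison cells. Rps13-ps1 and Sfrp2 had 0 and 1 UMI in control, so their fitted folds rest on the prior count. Rps13-ps1 had a log2 ratio of 5.83 (3.9 to 11.7) at E13.5, against 6.90 in endocardial comparison cells.

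Nts, which encodes the peptide neurotensin, was the clearest lower gene with endothelial transcripts. It stood at 145.0 and 341 CPM in the LatsCKO libraries of E14.5 and E13.5, against 799 and 873 CPM in the control libraries (log2 -1.77, SE 0.334, edgeR adjusted p = 0.0038). The libraries do not overlap, and endocardial comparison cells showed the same direction at lower levels, at 107 and 189 CPM against 376 and 355 CPM. Within the selected cells with Wnt4 alone, Nts stood at 44.7 and 191 CPM in LatsCKO and 1201 and 1277 CPM in control, a log2 ratio of -4.18 (-10.1 to -2.19) at E14.5 and -2.70 (-3.62 to -1.96) at E13.5. In cells with Cyp26b1 alone it stood at 166 and 290.0 CPM in LatsCKO and 156 and 269.7 CPM in control, with ratios of -0.15 (-2.18 to 3.34) and 0.05 (-0.94 to 1.28). Cells with both genes held 0 and 500.2 CPM in LatsCKO and 169 and 940.4 CPM in control, and cells with neither 246 and 369 CPM in LatsCKO and 1472 and 389 CPM in control. Nts was lower in LatsCKO at both stages in 3 of the 4 sets, but clearly so only in Wnt4-alone cells. Cells with both genes at E14.5 held 0 Nts UMIs in LatsCKO and 5 in control, from 3 and 5 cells. Cells with neither gene nearly matched at E13.5, from 38 UMIs in LatsCKO and 18 in control. These values within the division were added after the data were seen and were not tested. Nts lost its call under DESeq2 (adjusted p = 0.50).

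Hbegf, a growth factor that binds the EGF receptor and is known to limit valve growth in mice, stood at 61.1 and 159 CPM in LatsCKO, against 263 and 484 CPM in control (log2 -1.73, SE 0.364, edgeR adjusted p = 0.015), and 27.2% of its UMIs came from 1 cell. Hspb1, a small heat shock protein, stood at 38.2 and 189 CPM in LatsCKO, against 242 and 473 CPM in control (log2 -1.64, SE 0.377, edgeR adjusted p = 0.040), with 40.1% in 1 cell. At E13.5 Hspb1 was lower in LatsCKO only in cells with both Wnt4 and Cyp26b1, at 298 against 1205 CPM (28 and 114 UMIs). Elsewhere at E13.5 it was higher in LatsCKO, at 204 against 105.5 CPM with Wnt4 alone and 108 against 53.9 CPM with Cyp26b1 alone. With neither gene it stood at 175 against 64.9 CPM. These 3 control values rest on 10, 2 and 3 UMIs. In endocardial comparison cells Hbegf differed by 0.01 and -1.28 and Hspb1 by 0.43 and 0.20 at E14.5 and E13.5, and neither gene passed the test of the difference between the cell sets described below (log2 -0.81, edgeR adjusted p = 0.999 for Hbegf, and -2.12, edgeR adjusted p = 0.30 for Hspb1). Sfrp2, a secreted Wnt modulator, was higher with 99.2 and 73.2 CPM in LatsCKO, against 0 and 3.67 CPM in control, a log2 ratio of 3.76 (1.73 to 9.67) at E13.5, but its UMIs came from 13 cells, 37.2% from 1. Myl7, a cardiomyocyte gene, was higher (2.68) with 54.9% of UMIs from 1 cell. DESeq2 called 2 genes higher and 0 lower (19 at an unadjusted p under 0.05).

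**Figure D5:**
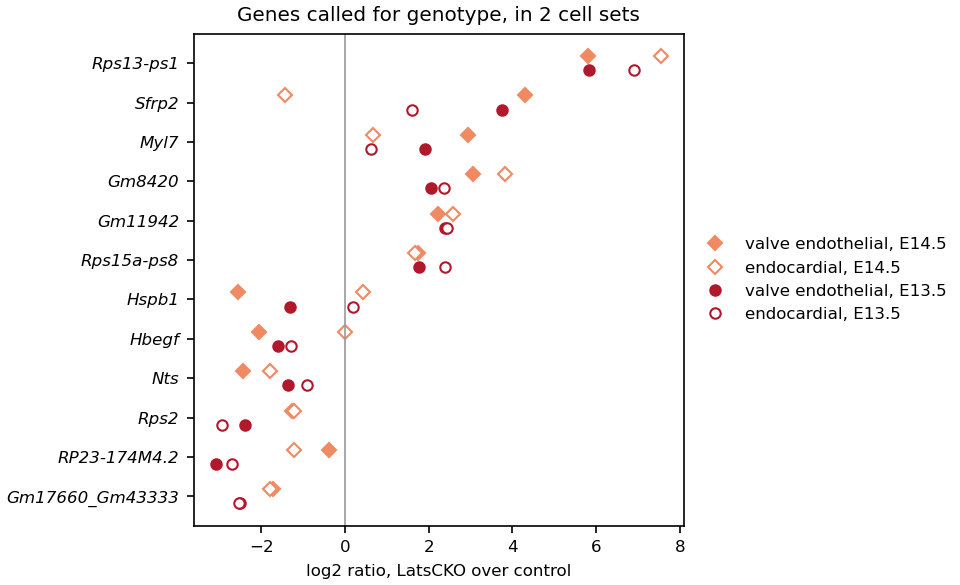
Log2 ratio of LatsCKO over control at each stage for the 12 genes called in the genotype comparison, with filled points for the selected (valve endothelial) cells and open points for endocardial comparison cells. Nts lies left of 0 in both kinds of cell at both stages, while Hspb1 lies left of 0 only among the filled points. Of the selected cells at E13.5, only those with both Wnt4 and Cyp26b1 had lower Hspb1 in LatsCKO.

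Klf2, whose CPM values above are lower in LatsCKO than in control at both stages, did not pass the test (log2 -0.82, edgeR adjusted p = 0.60). The lists fixed for the Hippo pathway and its outputs held 0 called genes. Yap1, the co-activator restrained by Lats kinases, stood at 61.1 and 88.4 CPM in LatsCKO, against 147 and 132 CPM in control (log2 -0.78, SE 0.416, edgeR adjusted p = 0.89). Wwtr1, which encodes Taz, stood at 153 and 187 CPM in LatsCKO, against 179 and 227 CPM in control (log2 -0.23, SE 0.361, edgeR adjusted p = 0.997). Of 18 YAP target genes with at least 20 UMIs, 0 were higher and 5 lower in LatsCKO at both stages, against 24.9% higher and 26.2% lower at both stages over 7349 such genes. Of 16 genes of S phase, 0 were higher and 11 lower at both stages, with medians of -1.47 at E14.5 and -0.27 at E13.5, and of 20 genes of G2 and M phase 1 was higher and 13 lower, with medians of -1.47 and -0.27. The medians of all such genes were -0.03 at E14.5 and -0.0004 at E13.5. G2 and M phase genes summed to 1084 and 2584 CPM in LatsCKO and 3415 and 2970.0 CPM in control, with 0 of them called, and to 1673 and 2337 CPM against 1968 and 2593 CPM in endocardial comparison cells. The median UMIs per cell given above were higher in LatsCKO at both stages, and the part of depth was not tested.

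The same fit made 7 higher (0.0801%) and 3 lower (0.0343%) calls in endocardial comparison cells, 10 of 8743 genes (0.114%), and 1 higher (0.0143%) and 0 lower (0%) in coronary comparison cells, 1 of 7002 genes (0.0143%, with 164 lower at an unadjusted p under 0.05). Whether the genotype effect differed between the selected and the endocardial comparison cells was tested as an interaction with the library as a block. Of 7493 genes, 5 were higher (0.0667%) and 5 lower (0.0667%), 10 in all (0.133%), and DESeq2 called 0 in either direction (11 and 3 at an unadjusted p under 0.05). Eln had an interaction of 1.75 (SE 0.273, edgeR adjusted p = 2.6e-07). Selected cells held 2022 and 1515 CPM of Eln in LatsCKO and 1282 and 653 CPM in control, while endocardial comparison cells held 107 and 163 CPM in LatsCKO and 206 and 252 CPM in control. Fbln5 had an interaction of 1.82 (SE 0.389, edgeR adjusted p = 0.0039), at 473 and 449.5 CPM against 305 and 176 CPM in selected cells and 18.3 and 63.2 CPM against 56.6 and 78.3 CPM in endocardial comparison cells.

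Both elastic fibre genes are those that set Cyp26b1-alone cells apart, and those cells were a larger share of the LatsCKO libraries. Within Cyp26b1-alone cells, Eln stood at 3050.0 and 3000.0 CPM in LatsCKO and 5864 and 2185 CPM in control, ratios of opposite sign at the 2 stages (log2 -0.95 and 0.45). Within Wnt4-alone cells it was higher in LatsCKO at E14.5 (log2 2.30, 1.12 to 3.83) and at E13.5 (0.99, 0.26 to 1.76). Cells with neither gene held 1965 and 1486 CPM of Eln in LatsCKO and 1521 and 1146 CPM in control. Cells with both genes held 167 and 447 CPM in LatsCKO and 305 and 190 CPM in control. The part of the shares in the interaction was not tested. Fos, an early response gene, had an interaction of 1.47 (SE 0.325, edgeR adjusted p = 0.0068), at 359 and 338 CPM in LatsCKO and 210.2 and 304 CPM in control in selected cells, and at 88.7 and 94.8 CPM in LatsCKO and 279 and 166 CPM in control in endocardial comparison cells. Anxa2, annexin A2, had -0.99 (SE 0.242, edgeR adjusted p = 0.031), at 450.2 and 1493 CPM in LatsCKO and 1524 and 1889 CPM in control in selected cells, and at 624 and 973.5 CPM in LatsCKO and 683 and 854 CPM in control in endocardial comparison cells. The other 6 calls, of haemoglobin genes, Ccl2, Cryab and Timp3, had 35.6% or more of their UMIs in 1 selected cell.

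Between stages, 81 of 4730 genes were higher at E14.5 (1.71%) and 6 lower (0.127%), 87 in all (1.84%), in the same edgeR fit. Ribosomal protein genes made up 40 of the 81, of 86 tested, with a median log2 of 0.85 against -0.005 for all genes tested. Rps12 stood at 992 and 788 CPM in LatsCKO and control at E14.5, against 15.2 and 11.0 CPM at E13.5, and at 1117 and 986 CPM against 20.6 and 8.07 CPM in endocardial comparison cells. Cardiomyocyte markers made up 7 of the 81, of 12 tested. Tnnt2, Actc1 and Myh7 among them are genes of the selecting limit, so their calls are not read as results. Of the 87 calls, 85 had the same direction in endocardial comparison cells of both genotypes, which come from the same libraries. That share was not computed over all tested genes. Stage and library preparation cannot be told apart.

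The 6 lower genes at E14.5 included endothelial regulators. Id3, an inhibitor of DNA-binding transcription factors and a known BMP target, stood at 481 and 620.0 CPM in LatsCKO and control at E14.5, against 1541 and 1533 CPM at E13.5 (log2 -1.40, SE 0.298, edgeR adjusted p = 0.0033), and at 749 and 743.5 CPM against 1249 and 1248 CPM in endocardial comparison cells. Cav1 stood at 137 and 84.1 CPM at E14.5, against 298 and 396 CPM at E13.5 (log2 -1.50, SE 0.391, edgeR adjusted p = 0.028). For both genes the stages do not overlap. Emcn is a gene of the selecting panel, so its call is not read as a result, Stx7 (-2.49) is a syntaxin, RP23-174M4.2 (-1.78) stood highest, at 1738 CPM, in the control library of E13.5, and Ddx3y (-3.36) is Y-linked, with the sex of the embryos not given in the sources used here.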

How the data were processed

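The deposited table held whole UMI counts per gene and cell, made by the authors from 4 Drop-seq libraries, 1 per genotype and stage, with 30268 genes in 24849 cells. STAR, Picard and the build mm10 are named in the submitters' processing notes. Versions and gene models are not given in the sources used here. Cell names gave stage and genotype, and 0 columns were unmapped. The younger stage is e13.5 in the labels, which were followed, and e13.4 in the design text. Nothing says that libraries came from separate animals or pools, so p-values measure only the spread between these libraries.

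The selected cells, gene lists and comparisons were chosen with earlier results of these data known. Counts were summed per library and cell set and scaled to CPM. edgeR 4.0.16 (TMM, filterByExpr, quasi-likelihood test, Benjamini-Hochberg over all genes tested, threshold 0.05) fitted genotype and stage additively, the interaction of genotype with cell set, and the division by Wnt4 and Cyp26b1 with the library as a block. An SE is the absolute log2 value over the square root of F. The fits were tested on simulated data. DESeq2 1.42.0 was an alternative. Doublets were not called, and leaving out the 5% of selected cells with most UMIs was an alternative. Shares have exact binomial intervals, levels Poisson intervals and log2 ratios of 2 libraries conditional binomial intervals, all for counting error only, since 1 library stands for each group. Gene positions are from GENCODE M21.

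The text names the 7 defining genes, Lats1, Lats2, Yap1, Wwtr1 and the transgenes. It also names every called gene up to the 10 of lowest p per direction and comparison, genotype ratios largest at both stages, the 15 genes highest and 10 lowest against endocardial comparison cells at 100 CPM or more, and list members with high levels. Where others are named, they were chosen after their values were seen. Ratios largest at both stages among genes of at least 40 UMIs that passed no test are named in the closing section. Results of a few listed genes are not reported here.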

Additional observations from a re-analysis of the deposited data

Results flagged for a closer look

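Of the genes whose genotype effect differed between selected and endocardial comparison cells, by the interaction test in edgeR, 5 had a higher effect in the selected cells. These were Eln (log2 1.75), Fbln5 (1.82), Fos (1.47), Hbb-y (3.09) and Hba-x (4.15). Lower effects were found for Ccl2 (-4.41), Cryab (-2.08), Timp3 (-1.70), Hbb-bs (-1.02) and Anxa2 (-0.992). A single selected cell held 88.2% of Ccl2 UMIs, 44.5% of Cryab, 35.6% of Timp3, 67.2% of Hba-x, 58.7% of Hbb-y and 43.4% of Hbb-bs, against 14.4% of Eln and 20.2% of Fbln5. Without cells of over 1% haemoglobin UMIs, an alternative chosen after seeing the data, Hbb-y stood at 0.10, Hba-x at 0.25 and Hbb-bs at 0.06, while Eln stood at 1.73 and Fbln5 at 2.01.

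For 6 genes the LatsCKO and control libraries differed in opposite directions at the 2 stages with both counting intervals clear of 0, and the difference between stages was not tested. Other named genes had ratios of opposite sign with an interval that held 0. The log2 ratio of LatsCKO over control was -1.94 at E14.5 and 4.76 at E13.5 for Hbb-bs, -2.10 and 5.55 for Hba-a2, and -1.14 and 4.67 for Hba-a1. It was -0.562 and 0.839 for Aqp1, 0.505 and -0.509 for Cdkn1c, and 2.16 and -1.19 for Klhl4.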

How the results depend on the processing

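Counts of genotype calls moved with the settings. Genes higher in LatsCKO numbered 6 as reported, 11 with at least 3 defining genes, 10 with at least 1000 UMIs, 1 with at most 10% mitochondrial UMIs and 2 under DESeq2, and 0 to 60 with a library left out (0 without LatsCKO E13.5, 60 without control E14.5). Lower genes numbered 6 as reported, 12, 0 and 0 under the last 3 of these settings, 10 without the filter on low counts, and 0 to 25 with a library left out (25 without LatsCKO E14.5, 12 without control E14.5, 3 without control E13.5). Stage calls higher at E14.5 numbered 39 with at most 10% mitochondrial UMIs and 39 under DESeq2, and 45 to 86 with a library left out (45 and 47 without the LatsCKO and control libraries of E13.5). Lower ones numbered 10 with at least 1000 UMIs, 0 with at most 10% mitochondrial UMIs, 1 under DESeq2, 14 without the filter, and 2 to 25 with a library left out (25 without either E14.5 library, 2 without control E13.5). The interaction gave 3 higher calls without cells rich in haemoglobin and 0 and 0 under DESeq2. The division by Wnt4 and Cyp26b1 gave 1 higher and 5 lower under DESeq2, 1 lower with at least 3 defining genes (chosen after seeing the data), 15 lower for all cells with Wnt4 against all without, and 1 to 3 higher and 3 to 7 lower with a library left out (1 higher without each library but control E14.5, and 3 lower without either E13.5 library). Fbln5 kept its call under 10 of 10 alternatives, and Eln and Igfbp5 under 9 of 10 each. Other genes of the division kept theirs less often, down to 1 of 10 for Fxyd5 and Cd9. The reversals were Igfbp5 for all cells with Wnt4 against all without (-0.060) and Hbb-bs in the interaction without haemoglobin-rich cells (0.064). Nts kept its genotype call under 7 of 12 alternatives, at an adjusted p of 8.9e-05 to 0.80, and was not called without LatsCKO E13.5, control E13.5 or LatsCKO E14.5. Over the single genes named among calls, these included, 66 of 93 kept their genotype call under other settings and 18 of 47 with a library left out, as did 107 of 125 and 50 of 64 for stage, 31 of 50 for the interaction, and 55 of 95 and 22 of 65 for the division. The cause of these shifts was not tested. Fits with a library left out drop the other factor and assume that a lone library varies like the others. The share ratio of LatsCKO over control at E14.5 was 0.539 after thinning. The ratio of E14.5 over E13.5 in control was 0.670 after thinning and 0.707 among cells with at least 2 panel genes. No pairing of libraries between genotypes or stages was possible because the labels give no replicate numbers and each genotype and stage has 1 library. Cell sets of the same library were paired through the library block.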

Other observations

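Genes with the largest LatsCKO over control ratio of 1 sign at both stages also included Myh6, Atp1b1, Atp2c1 and St3gal5 (higher) and Mapkapk2, Anxa8, Mcm2, Ncapg, Kif15, Gm6745, Gm12328 and Gm9625 (lower), none of which passed the edgeR test.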
